A study of Homo sapiens with 12 samples.

Results

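The regions described here are the m6A peak intervals that fall inside the KRAB zinc finger gene clusters of chromosome 19 in H460 cells, a widely used line from a human large cell lung carcinoma. They were chosen by position alone: an interval of any of the 6 peak lists was a member where it lay wholly within 1 of 5 blocks of chromosome 19 (hg19, either strand). Block 1 runs from 11600000 to 12600000, block 2 from 19800000 to 24400000, block 3 from 36600000 to 38400000, block 4 from 44200000 to 45000000 and block 5 from 52000000 to 59100000, 15.3 Mb together. The blocks held 715 of the 53502 intervals of the series. Joined where they overlapped by at least 1 bp on the same strand, these formed 274 of 20742 regions. Chromosome 19 held 1302 regions, so 1028 lay outside the blocks.

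In MeRIP-seq, RNA fragments that carry N6-methyladenosine (m6A) are captured with an antibody (IP) and sequenced beside an input library of unselected RNA. By their titles, the 12 libraries form 4 groups of 3, all from wild-type H460 cells: untreated input, untreated IP, rapamycin input and rapamycin IP. Rapamycin, an inhibitor of the mTORC1 kinase that induces autophagy, was given at 100 nM for 24 h. The 6 lists, called A to F, are tied by the record to untreated input and IP libraries, while rapamycin stands in the file names of the last 3. Because the record and the names disagree, no list was given to a treatment arm, the effect of rapamycin was not examined, and each list stands on its own without an SD or a test over lists. Lists A, B and C held 707, 1047 and 757 intervals on chromosome 19, and lists D, E and F held 315, 301 and 329. No read counts accompany the lists, so their depth is unknown, and whether a missing interval was undetected or absent cannot be told apart.

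KRAB zinc finger genes form the largest family of human transcription factors. Their proteins join an N-terminal KRAB domain, which recruits the corepressor TRIM28, to an array of C2H2 zinc fingers that reads DNA, and many of them bind and silence transposable elements. The genes arose by tandem duplication, so they lie next to near-identical copies, and the whole finger array is usually encoded in a single long last exon that continues into the 3′ UTR. m6A is laid down by the METTL3-METTL14 complex and is known to gather in long exons and around stop codons. In the RefSeq gene table (GRCh38.p14, used for names and order only), 264 of the 565 protein-coding genes whose symbols begin with ZNF, ZFP, ZIM or ZSCAN were on chromosome 19, where they made up 18.2% of 1451 protein-coding genes. Of these 264, 240 (90.9%) had another gene of such a name as next protein-coding neighbour, and the longest unbroken run held 27. The lists give no gene names and no hg19 annotation was used here, so members are named by position. The label of the blocks was not checked gene by gene, and genes of other families within the blocks were not separated. Nor was the rest of chromosome 19 checked for zinc finger genes, so it is not a set known to be free of them. Reads from near-identical copies can be placed on either copy, and how the authors placed such reads is not stated in the labels.

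Counted over all 5 blocks, the clusters held fewer intervals per Mb than the rest of chromosome 19 in each of the 6 lists. The cluster intervals were longer, however, and covered a similar or larger amount of sequence. Inside the blocks, list A held 134 intervals, list B 217, list C 176, list D 70, list E 57 and list F 61, which is 18.5% to 23.2% of each list's chromosome 19 intervals from 26.0% of the span. Per Mb, list A held 8.76 intervals in the clusters and 13.2 in the rest. List B held 14.2 and 19.1, and list C 11.5 and 13.4. List D held 4.58 and 5.63, list E 3.73 and 5.61, and list F 3.99 and 6.16. The ratio of clusters to rest thus lay between 0.65 (list F) and 0.86 (list C).

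The sequence covered showed the opposite order in 5 of the 6 lists. List A had 13.4 kb per Mb in the clusters and 11.1 kb per Mb in the rest, list B had 18.1 and 14.6, and list C had 19.1 and 12.8. List D had 8.50 and 6.11 kb per Mb, and list F had 5.89 and 5.54. List E was the exception, with 5.60 kb per Mb in the clusters and 5.90 in the rest. The number per Mb depended on block 2, which was nearly empty. Without it, the median over lists was 9.30 intervals per Mb in the clusters and 9.66 in the rest, against 6.67 and 9.66 with it. Block 5 lay above the rest in every list, with 14.1, 22.5, 16.9, 7.32, 5.92 and 6.34 intervals per Mb in A to F. Block 4 did so in A, B, C and E only, and blocks 1, 2 and 3 did so in no list. The lower number per Mb was thus not shared by every block. The length of the rest, 43.5 Mb, was taken from the first to the last chromosome 19 base held by any list. It includes a gap of 5298 kb after block 2 in which no list held an interval. Counting this gap lowers both values of the rest, and no value was recomputed without it. The narrower orders depend on counting it, such as the sequence covered in list F and the number per Mb of block 5 in A, E and F.

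**Figure D1:**
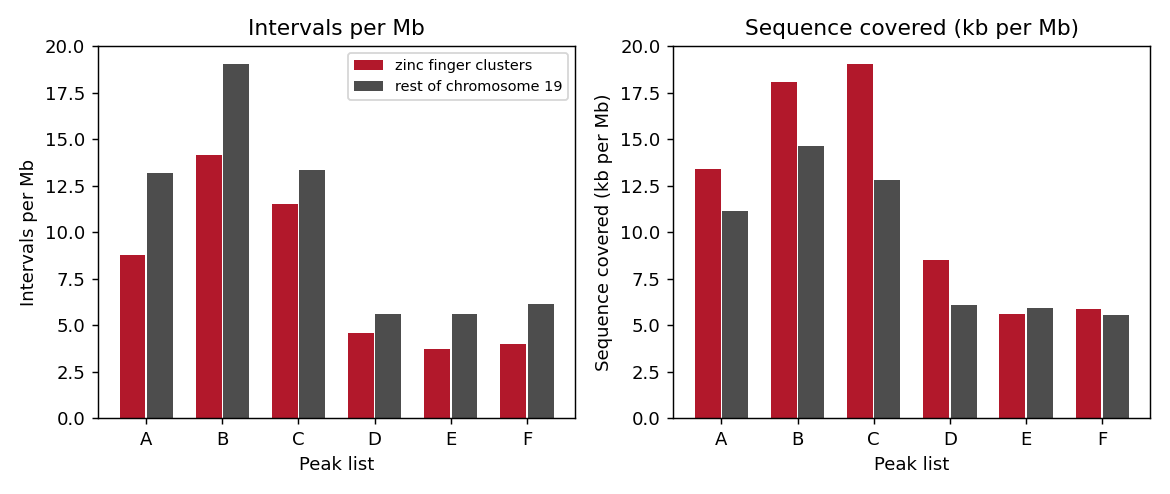
Intervals per Mb (left) and kb of sequence covered per Mb (right) in each peak list, as 1 bar per list for the zinc finger clusters (red) and for the rest of chromosome 19 (grey). Red bars are the shorter in all 6 lists on the left and the taller in all lists but E on the right.

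Width set the cluster intervals apart from their neighbours in every list. In list A the median interval was 1410.5 bp wide in the clusters and 552 bp in the rest. List B had 1062 and 464 bp, and list C had 1750.5 and 670 bp. List D had 1891 and 853 bp, list E had 1419 and 885 bp, and list F had 1418 and 537 bp. The 6 cluster medians did not overlap the 6 medians of the rest, and the ratio within a list ran from 1.60 (E) to 2.64 (F). Intervals of 2000 bp or more were 32.8%, 27.2% and 39.8% of the cluster intervals of lists A, B and C, and 47.1%, 38.6% and 32.8% of those of lists D, E and F. In the rest of the chromosome they were 9.04% (B) to 16.3% (D). Narrow intervals, under 200 bp, made up 1.43% (D) to 17.5% (B) of the cluster intervals and 11.02% (D) to 24.1% (B) of the others. They were scarcer in the clusters in all 6 lists.

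Seen from the whole lists, the clusters held 1.11% (A) to 1.46% (B) of all intervals and 3.05% (F) to 4.60% (C) of those of 2000 bp or more. Among intervals of 3000 bp or more, their share was 1.05% in list E, where this is 2 of 191 intervals, and 2.92% to 3.78% in the others. Width alone did not mark the chromosome's extreme: the widest cluster interval of a list measured 3691 to 4667 bp, whereas the widest of the rest measured 6466 bp in each of A, B and C. In lists D and E the widest cluster interval was the wider, by 4062 against 3681 bp in D and 3691 against 3680 bp in E. In list F it was the narrower, by 3787 against 4655 bp.

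**Figure D2:**
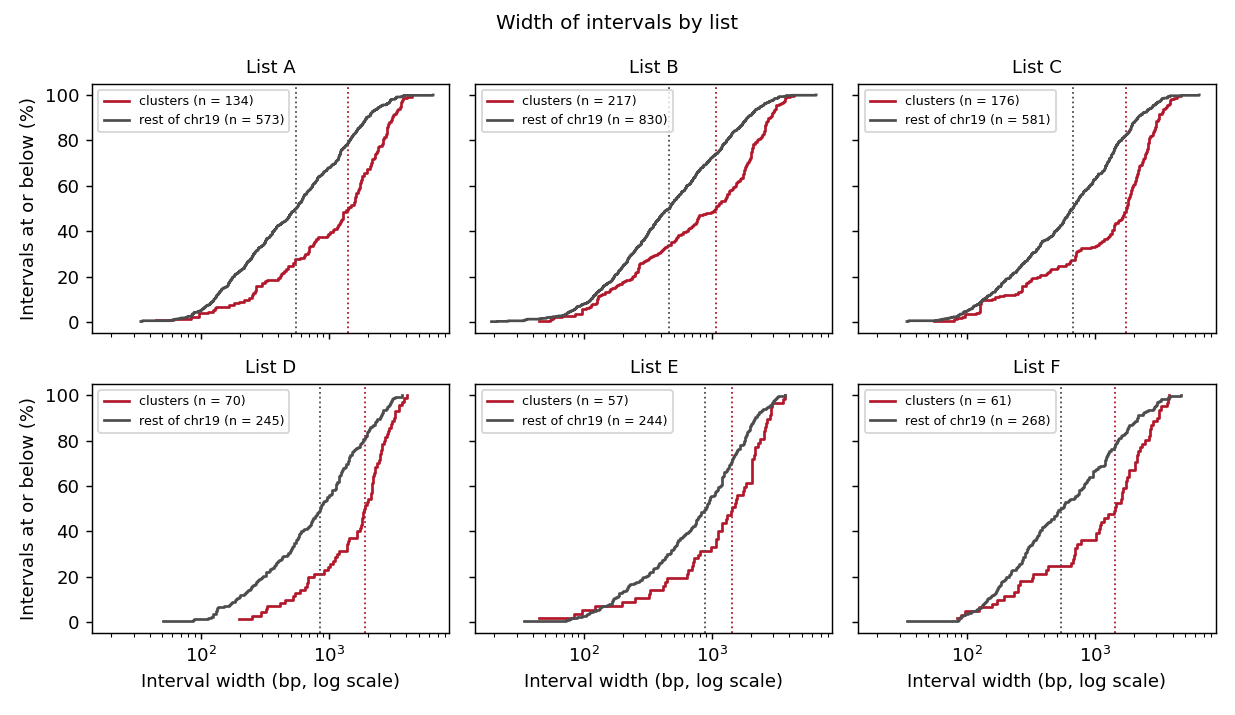
Cumulative percentage of intervals (vertical axis) at or below a given width (horizontal axis, bp, log scale) in lists A to F, for the clusters (red) and the rest of chromosome 19 (grey), with dotted lines at the medians. The red median lies to the right of the grey one in all 6 lists, from 1062 to 1891 bp against 464 to 885 bp.

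The blocks differed from one another more in number than in width. Block 1 held 10 regions (10.0 per Mb), block 2 held 9 (1.96 per Mb), block 3 held 33 (18.3 per Mb), block 4 held 23 (28.8 per Mb) and block 5 held 199 (28.0 per Mb). The rest of the chromosome held 23.6 per Mb, so blocks 4 and 5 lay above it and blocks 1, 2 and 3 below. Median region widths were 2054, 2489, 1596, 1308 and 756 bp in blocks 1 to 5, all above the 398 bp of the rest. Joined over lists, 81 of the 274 cluster regions (29.6%) were 2000 bp or wider, against 97 of 1028 (9.44%) outside. Widths of 3000 bp or more were reached by 29 regions in each set, which is 10.6% of the cluster regions and 2.82% of the others.

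Block 1 opened with 3 minus-strand regions of 418 to 768 bp and otherwise held regions of 1754 to 2687 bp. Its region held by all 6 lists lay at 11663858 to 11664625 on the minus strand, and all 6 lists gave it the same 768 bp. Its scores, one value per interval as the authors deposited it, were 139.16, 650.64 and 475.07 in lists A, B and C, then 271.98, 189.89 and 139.20 in lists D, E and F. Its scale is unstated, so scores are read here as percentiles within a list (0 lowest, 100 highest, ties at their middle rank). This region stood at percentile 29.7 in A and between 41.5 and 62.9 in the other lists. The widest region of the block, 11942183 to 11944869 on the plus strand (2687 bp), spanned 2604 to 2687 bp in A, B and C, but 633 bp in E, where its score of 71 was at percentile 1.07. Lists D and F did not hold it.

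Block 2, the longest after block 5, was the emptiest. List E held no interval in its 4.6 Mb, list F held 1, list A 2, list D 3, list B 6 and list C 7. Of its 9 regions, 8 were over 1000 bp wide, and the exception, at 19825170 to 19825296, measured 127 bp. The fourth Mb of the block held no region in any list. Its widest region ran from 21239437 to 21242696 on the plus strand. The lists that held it, B, C and D, all placed its 5′ end at the same base, and their intervals were 3053, 3058 and 3260 bp long. None of the 9 regions was held by more than 3 lists, and with 9 regions a count of 0 allows a share of up to 33.3% (3 counts of the total, counting error only).

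Block 3 held 14 plus-strand and 19 minus-strand regions. Its region of all 6 lists, at 37238120 to 37241706 on the minus strand, was 3587 bp wide and was given as 3046 bp (F) to 3587 bp (E). It scored low in 3 lists, at percentiles 5.57 in D, 14.3 in A and 20.3 in E, and higher in B, C and F, at 53.2, 64.1 and 74.5. The widest region, 37002547 to 37006601 (minus strand, 4055 bp), was in A, B and C only, as an interval of 4055 bp in A, 3391 bp in C and 1757 bp in B. Among the block's other regions, 1 chosen after its values were seen had exactly the same boundaries in the 5 lists that held it. It lay at 36726561 to 36729675 (plus strand, 3115 bp) and scored 3100 in A, B and C, 581.06 in D and 2384.73 in F, which are percentiles 82.3 to 98.3. List E did not hold it.

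In block 4, 17 of 23 regions were on the plus strand. From 44455375 to 44764361, 16 consecutive regions were on that strand, with a median width of 1300.5 bp and 9 of them in 3 or more lists. No region of the block was in all 6 lists, where a count of 0 among 23 allows up to 13.0%, and 2 were in 5. Its widest region, 44678973 to 44682008 (plus strand, 3036 bp), was held by A, C, D and E with 2873, 2834, 2568 and 2555 bp. List B, the longest list, did not hold it.

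Runs on the same strand were not peculiar to the clusters. Neighbouring regions shared a strand in 202 of 269 pairs (75.1%) within blocks and in 763 of 1027 pairs (74.3%) outside, and the longest run was 27 regions in both sets. The cluster run, in block 5 from 56934260 to 57957191, stretched over more than 1 Mb and had a median width of 1615 bp. The run outside, from 45165007 to 45807457, had a median width of 470 bp.

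Block 5 held 199 of the 274 regions and was itself mixed. From 52000000 to 54000000 the median interval was 1575.5 bp (B) to 2596 bp (E) wide. From 56000000 to 59100000 it was 1036.5 bp (B) to 1791 bp (D). In the stretch between, from 54000000 to 56000000, it was 356 bp (B) to 778.5 bp (D), below both flanks in all 6 lists. The rest of the chromosome had wider medians in A (552 against 429 bp), B (464 against 356) and C (670 against 413). It also did in D (853 against 778.5 bp) and E (885 against 725.5), but not in F (537 against 646). Intervals of 2000 bp or more made up 43.8% (B) to 80.0% (D) of the first stretch and 25.6% (B) to 37.1% (C) of the last. In the middle, lists A, B and C had 1, 3 and 2 of them. There were none among the 10, 8 and 9 intervals of lists D, E and F. The group with the most regions, when regions of a strand less than 10 kb apart were put together, also lay in the middle stretch: 11 plus-strand regions within 47.6 kb, from 54609241 to 54656819, with a median width of 314 bp, 7 of them in 1 list. This division of block 5 was made after the widths were seen. Without the middle stretch the median cluster width over lists was 1730 bp, against 1418.5 bp with it.

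**Figure D3:**
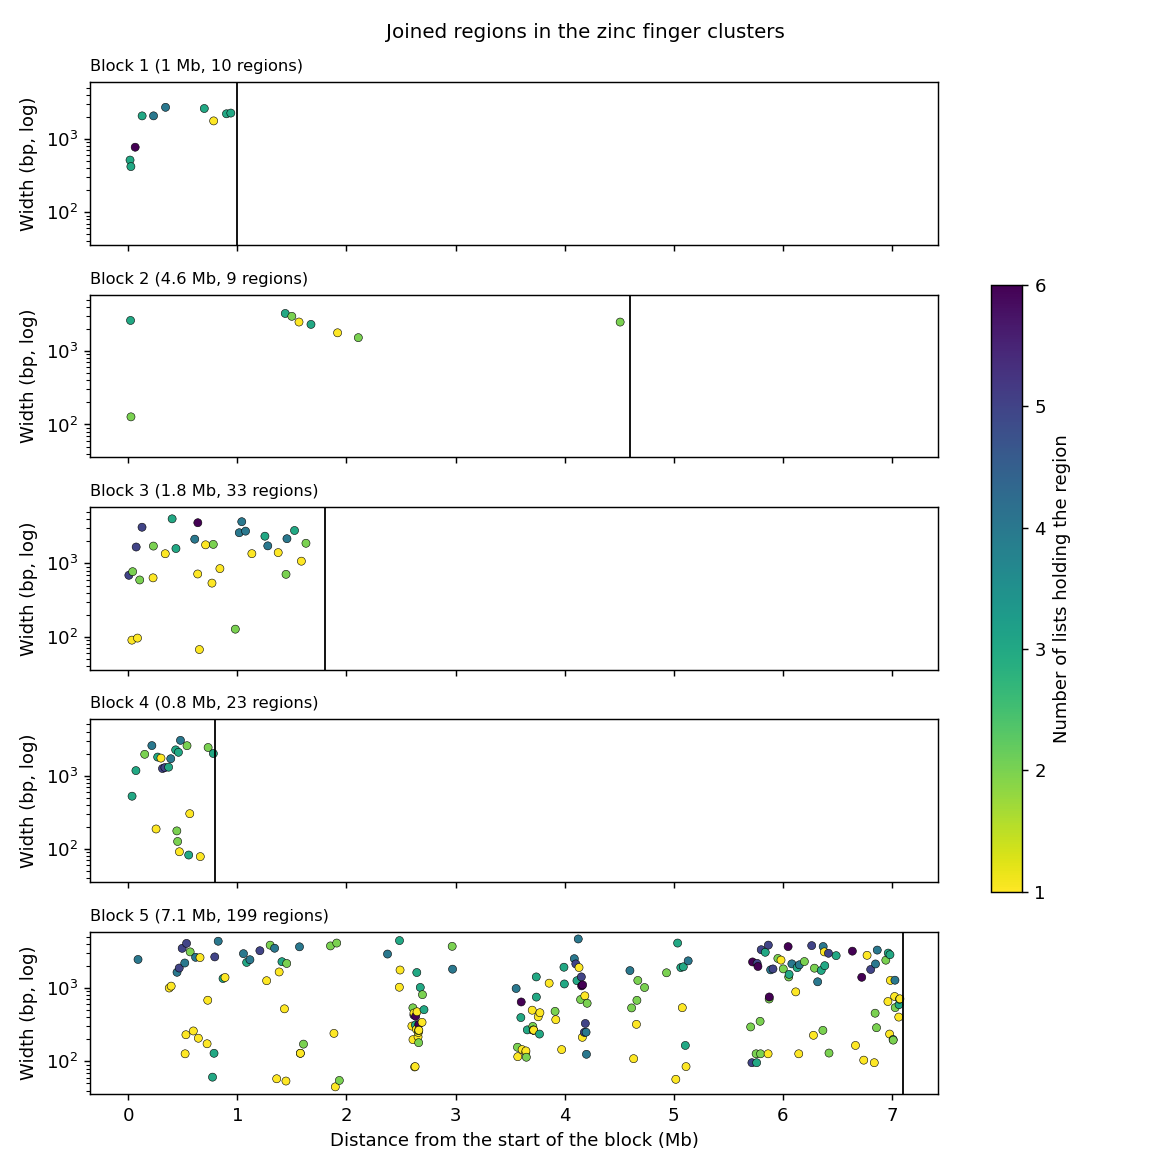
Each joined region as a point, by distance from the start of its block (horizontal axis, Mb) and width (vertical axis, bp, log scale), with 1 panel per block, a vertical line at the block's end and colour for the number of lists (1 to 6). Block 2 holds 9 points in 4.6 Mb, and between 2 and 4 Mb into block 5 most points lie below 1000 bp.

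Regions of the clusters stood further apart than those elsewhere. The median gap between neighbouring regions of a strand was 20.3 kb in the clusters and 15.5 kb in the rest. When regions of a strand less than 10 kb apart were put together, a distance chosen after the data were seen, the 274 cluster regions formed 187 groups and 144 of these (77.0%) held a single region. The 1028 other regions formed 612 groups, of which 379 (61.9%) held a single region. With limits of 5 and 20 kb, single regions made up 85.6% and 62.1% of cluster groups, and 74.9% and 48.1% of the others.

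Wide cluster regions shared their 5′ ends between lists far more often than their 3′ ends. Among the 185 cluster regions held by at least 2 lists with 1 interval in each, the 5′ end was at the same base in every list holding it for 146 (78.9%), and the 3′ end for 86 (46.5%). In the rest of the chromosome, these were 536 (81.2%) and 472 (71.5%) of 660 regions. The 5′ ends were thus equal about as often, and the 3′ ends less often in the clusters. Part of this went with width. In regions under 1000 bp, the 3′ end was equal in 87.7% of both sets, and the 5′ end in 84.6% of cluster regions and 86.3% of the others. In regions of 2000 bp or more, the 3′ end was equal in 9 of 75 cluster regions (12%) and 25 of 83 others (30.1%), while the 5′ end was equal in 59 (78.7%) and 55 (66.3%). Where the 3′ ends of the wide cluster regions differed, the spread over lists had a median of 304.5 bp and a maximum of 2298 bp. The corresponding median outside was 677.5 bp. Regions of this width, single-list ones included, were in 3.46 lists on average in the clusters and 4.10 outside. An end has more chances to differ where more lists hold the region, and no allowance was made for this. Cluster regions of this width therefore commonly began at a fixed base and ended at variable ones. An example is the region at 57722722 to 57724990, described below. Regions were not compared with exon boundaries, so what lies at the fixed base was not tested.

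Cluster intervals ranked lower than the others by score in 5 of the 6 lists. List A had a median score percentile of 54.0 in the clusters and 53.0 in the rest. List B had 45.1 and 49.6, and list C had 46.6 and 52.4. List D had 39.8 and 49.1, list E had 47.3 and 48.5, and list F had 48.6 and 49.1. The differences ran from −9.35 points in D to 0.99 in A. With every list reduced to the length of the shortest by its highest scores, the difference of the medians over lists was 0.13 points in the other direction.

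At the upper end of the score the clusters were lower in all 6 lists, though by unequal amounts. Intervals above percentile 75 of their list made up 23.9%, 17.1%, 22.2%, 12.9%, 8.77% and 23.0% of the cluster intervals of A to F. They made up 28.4%, 25.9%, 25.8%, 25.3%, 23.4% and 23.5% of the others, so the differences ran from −14.6 points in E to −0.56 in F. Scores of 3100 or more, a value at which many intervals pile up and cannot be ranked, were reached by 1 of 134 cluster intervals in A, 17 of 217 in B and 12 of 176 in C. None reached it among the 70, 57 and 61 of D, E and F, where a count of 0 allows up to 4.29%, 5.26% and 4.92%. Outside the clusters lists A, B and C had shares of 3.84%, 10.8% and 9.64%. Lists D, E and F had 1.63%, 2.05% and 0.75%, which lie within the limits that the zero counts allow.

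Because wide intervals score higher, the comparison was repeated within classes of width, a division made after the data were seen. Spearman's rho between width and score ran from 0.16 (D) to 0.52 (C) over the 57 to 217 cluster intervals of a list and from 0.17 (E) to 0.45 (B) over the 244 to 830 others, as a description across intervals that share a library. Among intervals of 1000 bp to under 2000 bp, the cluster median was lower in all 6 lists, with differences from −21.8 (B) to −2.997 (E) percentile points. Among those of 2000 bp or more it was lower in 5 lists: 71.4 against 76.5 for A, 59.6 against 77.5 for B, 65.8 against 76.8 for C, 44.4 against 73.8 for D and 46.6 against 59.2 for E. List F was the exception, with 72.1 in the clusters and 64.1 in the rest. For all intervals of 1000 bp or more, the median over lists was 54.2 in the clusters and 62.7 in the rest, a wider gap than the 47.0 and 49.4 of all widths.

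**Figure D4:**
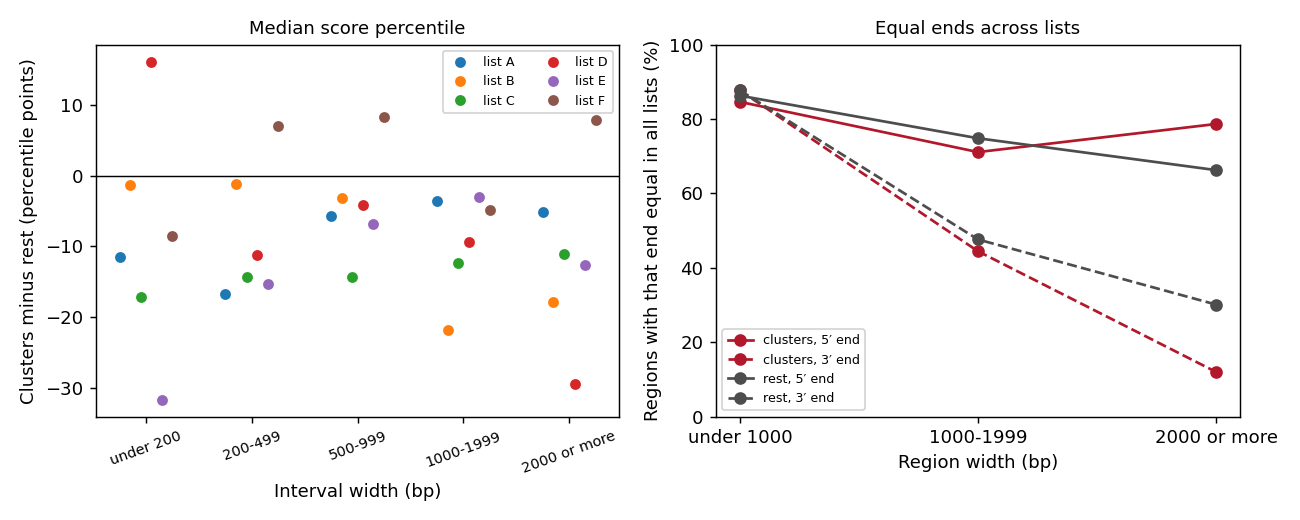
Left, the median score percentile of cluster intervals minus that of the rest of chromosome 19 in 5 classes of width, 1 point per list. Right, the percentage of regions whose 5′ end (solid) or 3′ end (dashed) was the same in every list holding them, for clusters (red) and the rest (grey). Points left of 1000 bp rest on as few as 1 cluster interval, and at 2000 bp or more the dashed red line falls to 12% while the solid red one is at 78.7%.

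Fewer cluster regions recurred in every list. All 6 lists held 13 of the 274 cluster regions, 4.74% (95% exact binomial interval 2.55% to 7.98%, counting error only). In the rest they held 93 of 1028, 9.05% (7.36% to 10.97%). The 2 intervals overlap. At the looser limit of 3 or more lists, the order was the other way, with 129 cluster regions (47.1%) and 461 others (44.8%), and regions in a single list were 87 (31.8%) and 358 (34.8%). At 5 or more lists the clusters were again lower, with 36 regions (13.1%) against 183 (17.8%). The order at 3 or more lists was that of all widths together: within each of 5 classes of width the cluster share was the lower, and cluster regions were wider. Without list E, 8.06% of cluster regions and 11.97% of the others were in all 5 remaining lists.

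Elsewhere on the chromosome the share held by all 6 lists climbed with width up to the widest regions, and in the clusters it did not. The share in 3 or more lists climbed with width in both sets, from 16% under 200 bp to 77.8% at 2000 bp or more in the clusters and from 26.4% to 79.4% in the rest. A joined region spans the bases of all lists that hold it, so each added list can only widen it. This rise is thus partly built in, and the width classes are not independent of recurrence. Of the regions of 2000 bp or more, 4 of 81 cluster regions (4.94%, interval 1.36% to 12.2%) and 24 of 97 others (24.7%, interval 16.5% to 34.5%) were in all 6 lists. These intervals do not overlap, but they hold counting error only and treat regions as independent. The width classes were made after the data were seen, and the gap was not tested. At 3 or more lists the same regions were close, with 63 of 81 in the clusters and 77 of 97 outside. Narrower classes were further apart at that limit, with 26.7% against 32% at 200 bp to under 500 bp and 32.4% against 50% at 500 bp to under 1000 bp. At 1000 bp to under 2000 bp, 4 of 64 (6.25%) and 19 of 167 (11.4%) were in all lists, and 35 (54.7%) and 121 (72.5%) in 3 or more. None of the 50 cluster regions under 200 bp was in all lists, which allows up to 6%, against 3.99% of 276 others. Cluster regions of 2000 bp or more were thus often in 3 or more lists but seldom in every list.

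**Figure D5:**
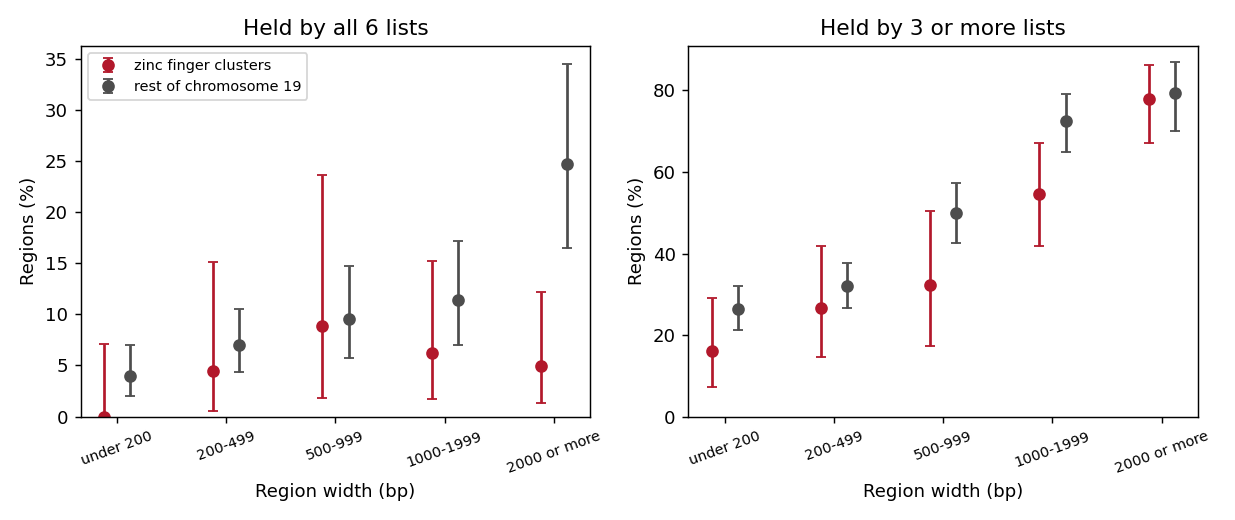
Percentage of joined regions held by all 6 lists (left) and by 3 or more lists (right) in 5 classes of width (bp), for the clusters (red) and the rest of chromosome 19 (grey). Bars are 95% exact binomial intervals (counting error only). The sets part most at 2000 bp or more on the left, 4.94% against 24.7%, and are close there on the right, 77.8% against 79.4%.

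At least 1 of D, E and F, the 3 short lists, held 113 cluster regions (41.2%) and 422 others (41.1%), near-equal shares. Of these, 19 cluster regions (16.8%) and 100 others (23.7%) were in all of D, E and F, and 58 (51.3%) and 259 (61.4%) were in all of A, B and C. List D shared 30 of its 70 cluster regions with E (42.9% of D, 52.6% of E's 57) and 37 with F (52.9% of D, 60.7% of F's 61). E and F shared 27, which is 47.4% of E and 44.3% of F. In the rest of the chromosome, D and E shared 64.8% of D's regions and 65.3% of E's. There, D and F shared 58.6% of D and 53.4% of F, and E and F shared 54.1% of E and 48.9% of F. Over the 15 pairs of lists, the median share of the shorter list's regions found in the other was 77.2% in the clusters and 81.7% in the rest. The most frequent combination in the clusters was list B by itself, with 54 regions (19.7%, against 21.1% of the rest). The set of A, B and C followed with 35, and B with C had 30 (10.9% against 8.27%). List C by itself had 17 (6.20% against 3.60%). All lists and the set of A, B, C and E had 13 each (4.74%), against 9.05% and 2.14% of the rest. Regions held by A, B and C and by no other list made up 12.8% of the clusters and 11.9% of the rest, and those in none of A, B and C were 10 (3.65%) and 56 (5.45%).

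Of the 13 regions in all lists, 11 were in block 5, 1 in block 1 and 1 in block 3. First by median percentile (92.2) was 56165416 to 56166519 on the plus strand. It scored 1800.83 in A and 3100 in both B and C, then 83.38, 1122.84 and 594.59 in D, E and F. It stood above percentile 86 in every list except D, where it stood at 9.46. Its intervals were nearly the same, at 1093 bp in A, 1102 bp in C and 1104 bp in the others.

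The region at 57722722 to 57724990 (plus strand, 2269 bp) was the most even of the 13 and was at percentile 75.6 or above in every list. It scored 650.87 in A and 3100 in both B and C, then 633.89, 485.48 and 1011.49 in D, E and F. Its intervals ran from 2034 bp in B to 2269 bp in A. At 58637695 to 58640878 (minus strand), lists A, D and E gave 3156, 3184 and 2938 bp and lists B, C and F gave 2157, 2113 and 2124 bp. Its scores were 424.65, 1525.66, 2241.55, 593.52, 155.78 and 556.44 in A to F, between percentile 43.3 (E) and 86.1 (C). At 56155919 to 56156989 (plus strand), all 6 lists gave the same 1071 bp, but the scores ranged from 76.01 in F (percentile 5.26) and 183.69 in D to 2235.79 in A and 3100 in B and C. In this region, equal boundaries thus went with very unequal ranks.

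The widest region of block 5, at 56124959 to 56129625 on the plus strand, was also the widest of all blocks with 4667 bp. Lists A to D gave it 3623, 4054, 4667 and 2278 bp, in that order, and E and F did not hold it. Its scores were 330.53 in A, 3125.39 in B, 2898.88 in C and 81.50 in D, so its rank ran from percentile 99.6 in B to 8.40 in D. The 3 best-ranked regions held by a single list were all in block 5: 57983385 to 57985789 (minus strand, 2405 bp) in A at percentile 72.6, 54600149 to 54600451 (minus strand, 303 bp) in B at 70.8, and 58741760 to 58741863 (plus strand, 104 bp) in B at 68.5. None of them ranked above percentile 75 of its list.

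No interval crossed an edge of a block, so membership did not depend on whether whole or partial overlap was asked for. The members nearest an edge on the inside lay 5.89 kb (block 3, start) to 168.9 kb (block 3, end) from it. Just outside block 1, a 433 bp region at 11594242 to 11594674 lay 5.33 kb before its start, and a 2547 bp region at 12636184 to 12638730 lay 36.2 kb after its end. The regions nearest to block 4 on the outside lay 25.5 kb before its start, at 44174218 to 44174498 (281 bp), and 165 kb after its end, at 45165007 to 45167420 (2414 bp). Both were held by all 6 lists. No region inside that block was, but a count of 0 among its 23 regions allows up to 13.0%, above the 9.05% of the rest.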

How the data were processed

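The 6 peak lists of H460 MeRIP-seq were used. Each has 6 columns and no header. The authors deposited 1 score per peak, on an unstated scale, with a lowest value of 70 to 70.08 in each list. The interval positions are on hg19, and HISAT2 2.0.4 was used, both per the submitters' processing notes; peak names have the form of MACS output, per the file contents. No label or header states the caller's version or settings, or the libraries used per list. Positions are printed 1-based.

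Intervals on chromosome 19 were sorted into the blocks, joined on the same strand over lists (minimum 1 bp) and described by number per Mb, width, score percentile and recurrence. Lists are not replicates of a known group, so nothing was tested. Named regions were the 4 best-ranked of each block in all lists, the widest of each block and the 3 best-ranked in a single list. The blocks, measures and rule were chosen with earlier results of these data known. Joining recovered 12 of 12 known values on 500 simulated regions, and bedtools 2.31.1 gave the same 1302 regions. Work used matplotlib 3.10.9, scipy 1.17.1, numpy 2.4.6, pandas 2.3.3 and Python 3.11.15. No sequence is shown because no hg19 genome was used here.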

Additional observations from a re-analysis of the deposited data

How the results depend on the processing

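As deposited, the medians over lists were 6.67 cluster intervals per Mb, 1418.5 bp and score percentile 46.95, and 4.74% of cluster regions were in all lists. With only scores at or above the pooled median, these became 2.91 per Mb, 1938 bp, percentile 72.28 and 0.65%. With each list reduced to the shortest, they became 3.66 per Mb, 1966.25 bp, percentile 66.13 and 3.70%. The percentile difference from the rest of the chromosome then turned from −2.41 to 0.13. The difference in regions held by all lists went from −4.30 to −8.92 points. Both settings remove low scores by construction. Without block 5, the values were 3.17 per Mb and 1791.25 bp. With intervals of 200 bp or more the percentile was 52.5, and with those of 1000 bp or more, added after seeing the data, 54.25. Without the narrow stretch of block 5, also added, the width was 1730 bp. At 3 or more lists, 47.08% of cluster regions recurred, and the difference from the rest, over regions of all widths, turned from −4.30 to 2.24 points. Leaving out each list in turn gave 4.58 to 8.76 per Mb, 1418 to 1419 bp, percentiles 46.57 to 47.34, and 5.45% to 8.06% in all remaining lists. Such a median always falls on a middle list, so the ranges for number, width and percentile do not measure the spread. The range for recurrence asks for fewer lists than the 4.74% does, a looser limit, so the 2 are not alike. Single lists ran from 3.73 to 14.2 per Mb, 1062 to 1891 bp and percentile 39.8 to 54.0. Cluster widths exceeded those of the rest under every setting run. Limits were 1.5 times for numbers per Mb and 95% binomial intervals otherwise, which treat intervals as independent. No paired analysis was possible because no list has a known arm and no test was run. Depth is unknown.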
